A study of Mus musculus with 10 samples.

Results

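Erythroid genes of the globin, haem and red cell membrane kind were followed through bone marrow cells of wild-type and leukaemia-prone mice. The set of 37 genes was given by symbol: α-globin genes, enzymes of haem synthesis, mitochondrial transporters, proteins of the red cell membrane and its skeleton, carbonic anhydrases and genes of late red cell maturation. Of these, 36 were measured among the 16771 genes listed per library, and Epb41, the gene of protein 4.1, was not analysed here. In all 35 passed the minimum of 1 RPKM in at least 2 libraries that admitted a gene to testing. Tmod1 was the member left out, and it is given by its levels.

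Expression was measured by RNA-seq in 10 libraries, 2 from each of 5 groups, all from C57BL/6 mice and all described by the submitters as biological replicates. For 4 groups the cells were lineage-negative bone marrow, labelled HSPC for haematopoietic stem and progenitor cells. Red cells had been lysed first, and a kit with magnetic beads had then taken out cells bearing markers of a mature lineage. These came from wild-type mice (WT), from Npm1flox-cA/+;Mx1-Cre+ mice (Npm1c), from Flt3ITD/+ mice (Flt3-ITD) and from mice with all of these alleles (double mutant). Neutrophils of WT marrow, taken with an isolation kit, made up the fifth group. NPM1 is a nucleolar chaperone whose leukaemic form moves to the cytoplasm, FLT3 is a receptor kinase of progenitors made overactive by the internal tandem duplication, and Mx1-Cre is a recombinase under an interferon-inducible promoter that also acts outside blood. The ages of the mice, and whether WT mice carried Mx1-Cre or received an inducer, were not stated in the labels.

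Red cells form from progenitors that first switch on the erythroid programme, with carbonic anhydrases, Rh proteins and enzymes of haem synthesis, and later fill with haemoglobin, rebuild their membrane on a spectrin and ankyrin skeleton, and discard their organelles. Haem is made by a chain of enzymes that begins and ends in the mitochondrion, opens in erythroid cells with ALAS2, and needs iron brought in by the transferrin receptor and mitoferrin. The membrane gains band 3, the anion exchanger to which the skeleton is anchored, late in this course. Lineage depletion kits usually remove late erythroblasts through a surface marker.

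Values are RPKM, reads scaled by gene length and by the library's read total, as deposited, and each group is given by its 2 libraries or as mean ± SD (n = 2). Differences are log2 changes ± SE from limma on log2(RPKM + 0.5) after the libraries were brought to a common median gene. On the deposited scale the median gene stood at -0.34 (log2) in the double mutant against WT. The share of reads on listed genes ran from 60.9% to 81.3%. Read denominators recovered from the values ran from 40783015 to 57824373 per library. The p-values measure the spread between these libraries, which may be partly technical. Of the 4 defining progenitor markers, Kit, Cd34 and Mpo were above 1 RPKM in all 8 HSPC libraries. Gata2 was at 0.949 and 1.02 in the double mutant. In both neutrophil libraries 3 of the 4 also reached 1 RPKM. The 6 progenitor markers summed to 107.1-112.3 RPKM there, above the 66.91-68.1 of the double mutant, so this list does not separate the 2 groups. The 10 neutrophil markers summed to at least 99130 RPKM in the neutrophil libraries against at most 413.5 in HSPC. Transcripts of 4 Y-linked genes summed to 12.55 RPKM in Npm1c replicate 2 and 13.39 in Flt3-ITD replicate 1, and to at most 0.00813 in the other libraries. In bulk RNA, fewer cells of a type and less RNA per cell cannot be told apart.

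In WT HSPC the set spanned a wide range of levels. Carbonic anhydrases, which interconvert carbon dioxide and bicarbonate, led it: Car2 was at 701 ± 16.5 RPKM and Car1 at 513 ± 19.5. Next came Aqp1, the water channel of the red cell membrane, at 308 ± 2.23, and Hba-a1, an α-globin gene, at 182 ± 9.76. Cpox, the coproporphyrinogen oxidase of haem synthesis, was at 123 ± 0.111, and Rhd, a protein of the Rh complex, at 92.9 ± 4.54. At the low end, Alas2, the first and rate-limiting enzyme of erythroid haem synthesis, was at 3.86 ± 0.0261 RPKM, Xpo7, a nuclear exporter of late erythroblasts, at 1.13 ± 0.0894, and Tmod1, which caps the short actin filaments of the membrane skeleton, at 0.399 ± 0.0418. Comparisons between genes rest on the gene lengths behind the RPKM, and for 27 of the 36 members the length implied by the values was longer than the exons in GENCODE M21.

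**Figure D1:**
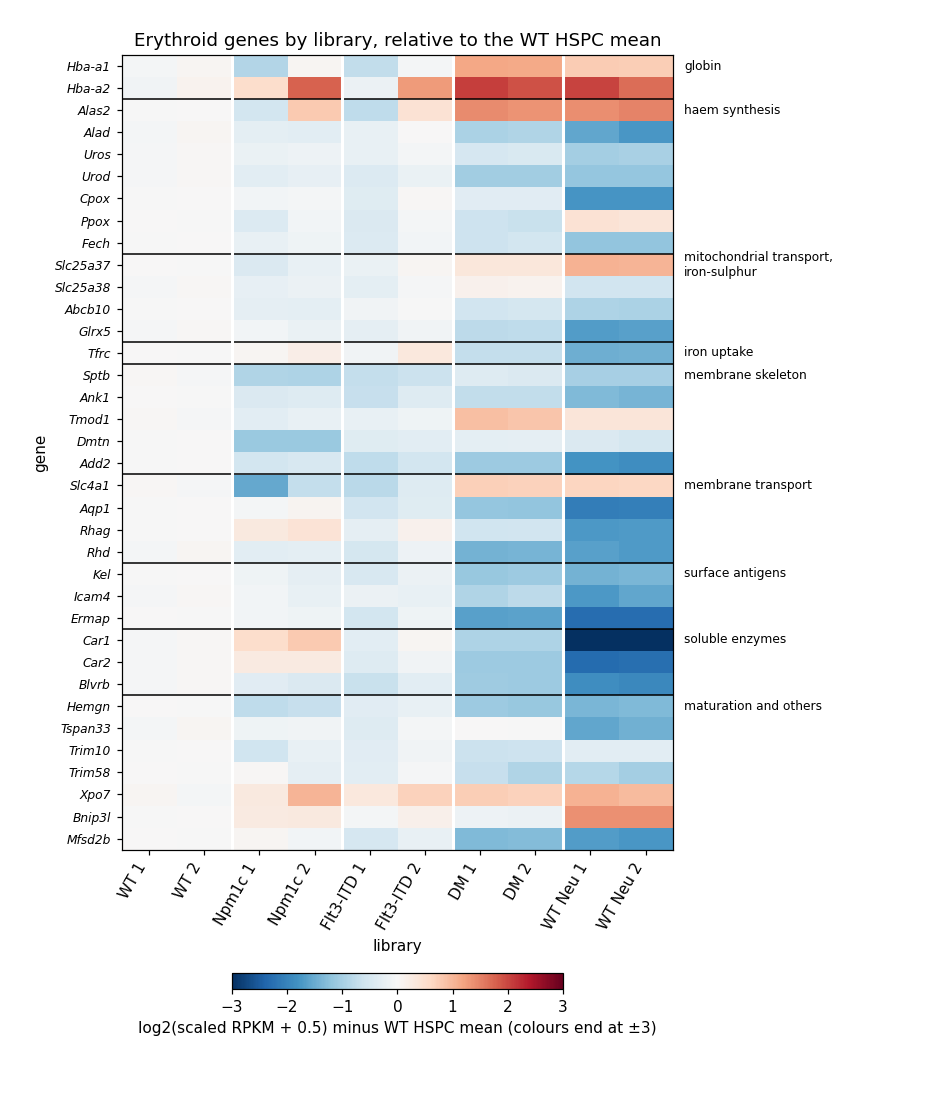
Level of each of the 36 measured genes (rows, grouped by role) in each of the 10 libraries (columns; DM, double mutant; Neu, neutrophils), as log2(scaled RPKM + 0.5) minus the mean of the 2 WT HSPC libraries. Most rows are blue in both double mutant libraries, while Hba-a1, Hba-a2, Alas2, Slc25a37, Tmod1, Slc4a1 and Xpo7 are red there.

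The stretch just upstream of several members carries the letters bound by GATA factors, the family of the erythroid regulator GATA1. RefSeq windows of 250 bases before the start site (build GRCm38.p6) were found for 27 of the 36 members. The motif was searched as AGATAA, then AGATAG, then TGATAA, then TGATAG, on both strands, and it was present in 15 of the 27 (55.6%), against 1489 of 7424 tested genes (20.1%) and 8039 of 27025 genes of the whole table (29.7%). Of the 6 members that were higher in the double mutant than in WT, 3 had a window, and all 3 held the motif. Slc25a37, Slc4a1 and Xpo7 had no window and were not searched. Of the 26 that were lower, 21 had a window, and 12 of those (57.1%) held it. Hba-a1 and Hba-a2 are both among the 3 higher members with the motif. Their windows are identical over the 247 bases they share when shifted by 3, so they count as 1 sequence. A CACCC box, the letters bound by KLF factors, searched as CCACACCC, CCGCACCC, CCACGCCC and CCGCGCCC on both strands, was in 6 of 27 members (22.2%) and in 22.6% of tested genes. A gene can have more than 1 window, on average 1.15 per member and 1.25 per tested gene, and a match shows letters only. For Hemgn, Blvrb and Uros, counted among the 15, the GATA motif lay only in a window wholly inside the GENCODE gene, not upstream of it. Upstream sequences of 5 genes are shown because the pair that was higher in the double mutant and the 3 that were lower hold the same letters. They run 5′ to 3′ on the gene's strand, stop where the GENCODE gene begins, and have the match in capitals (TTATCT and TTATCA are matches on the other strand). Hba-a1 is at chr11:32283422-32283510 on the plus strand, Alas2 at chrX:150547167-150547374 plus, Rhd at chr4:134864286-134864535 plus, Ermap at chr4:119190012-119190245 minus and Rhag at chr17:40810899-40811125 plus.
Hba-a1: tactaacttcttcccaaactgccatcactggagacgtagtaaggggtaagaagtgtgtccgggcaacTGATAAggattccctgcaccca
Alas2: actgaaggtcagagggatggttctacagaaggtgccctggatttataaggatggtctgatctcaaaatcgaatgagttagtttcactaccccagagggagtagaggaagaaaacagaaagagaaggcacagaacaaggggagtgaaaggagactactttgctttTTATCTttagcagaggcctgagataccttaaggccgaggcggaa
Rhd: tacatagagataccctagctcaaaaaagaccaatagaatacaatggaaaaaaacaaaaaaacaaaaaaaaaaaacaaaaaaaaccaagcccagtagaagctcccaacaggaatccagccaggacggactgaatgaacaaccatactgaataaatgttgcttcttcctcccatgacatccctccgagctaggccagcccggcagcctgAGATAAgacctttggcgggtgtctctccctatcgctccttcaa
Ermap: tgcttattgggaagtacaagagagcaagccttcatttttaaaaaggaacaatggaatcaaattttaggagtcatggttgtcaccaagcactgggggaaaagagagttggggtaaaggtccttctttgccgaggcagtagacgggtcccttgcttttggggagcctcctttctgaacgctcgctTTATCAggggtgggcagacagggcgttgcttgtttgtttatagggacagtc
Rhag: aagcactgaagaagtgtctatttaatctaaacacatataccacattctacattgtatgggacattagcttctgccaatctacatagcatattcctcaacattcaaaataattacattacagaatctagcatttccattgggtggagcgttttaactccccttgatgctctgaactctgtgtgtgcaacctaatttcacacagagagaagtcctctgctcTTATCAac

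The double mutant was compared with WT to ask what both lesions together did to the HSPC transcriptome. Most erythroid genes fell. Of 35 tested members 26 were lower, 6 were higher and 3 did not pass (adjusted p under 0.05), beside 40.3% of all tested genes lower and 37.3% higher. The median log2 change was -0.64 for the members and -0.03 for all tested genes. With RPKM as deposited 29 members were lower and 2 higher, with 58.9% and 23.9% of all genes. Leaving out WT replicate 1, WT replicate 2, double mutant replicate 1 or double mutant replicate 2 left 25 lower each time and 1, 2, 2 and 2 higher. A group left with 1 library was assumed to vary like the others. The genes that fell lay in every role except globin. Those that rose were both α-globin genes, the erythroid form of the first haem enzyme, mitoferrin, band 3 and a nuclear exporter.

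The α-globin genes were higher in both double mutant libraries than in any other HSPC library. Hba-a1 was at 175 and 189 RPKM in WT, 78.9 and 154 in the Npm1c pair, 102 and 146 in the Flt3-ITD pair and 326 and 317 in the double mutant. Its log2 change in the double mutant against WT was 1.17 ± 0.31 (SE, adjusted p = 0.0107). Hba-a2, the second copy, was far lower by these tables, at 8.06 and 9.20 RPKM in WT and 30.3 and 27.2 in the double mutant. Its change against WT was 2.02 ± 0.52 (SE, adjusted p = 0.00926). In recovered reads, not scaled for depth, Hba-a2 had 563 and 1409 in the Npm1c pair and 402 and 946 in the Flt3-ITD pair. The double mutant libraries had 1407 and 1372. In the double mutant against Npm1c, Hba-a2 did not pass, whereas Hba-a1 was called higher. The copies are nearly identical: the main GENCODE transcripts match at 537 of 538 aligned bases (99.8%), so the split of reads between them is uncertain. The ratio of Hba-a1 to Hba-a2 within a library was 21.8 and 20.6 in WT and 10.7 and 11.7 in the double mutant. It was also below WT in the Npm1c pair (7.88 and 6.14), the Flt3-ITD pair (14.5 and 8.10) and the neutrophils (8.42 and 10.5). Adult β-globin rose in the double mutant like the α-globin genes. Hbb-bs was at 109 ± 4.72 RPKM in WT and 406 ± 3.08 in the double mutant, a change of 2.25 ± 0.50 (SE, adjusted p = 0.00482). Without WT replicate 1 the adjusted p was 0.0581 for Hba-a1 and 0.0522 for Hba-a2, with the direction kept.

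Among the members of haem synthesis, Alas2 parted from the rest. Alas1, the housekeeping form of the same first enzyme, is outside the set and was lower in the double mutant (given below). Alas2 was at 3.84 and 3.88 RPKM in WT and 9.08 and 8.61 in the double mutant, a log2 change of 1.42 ± 0.49 (SE, adjusted p = 0.0309). The Npm1c libraries stood at 1.92 and 5.74 and the Flt3-ITD libraries at 1.87 and 4.52, so each pair spans the WT level, and both double mutant libraries were above all 6. The other 6 enzymes of the chain in the set were lower in the double mutant. Alad, which joins the first intermediates, was at 35.9 and 38.6 in WT and 15.0 and 15.6 in the double mutant, a change of -0.91 ± 0.08 (SE, adjusted p = 2.88e-05). Urod, the uroporphyrinogen decarboxylase, went from 19.9 and 21.1 RPKM to 7.60 and 7.68, a change of -1.03 ± 0.07 (SE, adjusted p = 1.05e-05). Uros, the synthase that closes the porphyrin ring, fell from 6.00 to 3.28 on average. Ppox, the protoporphyrinogen oxidase, fell from 2.92 to 1.31, and Fech, which inserts the iron, from 70.8 to 37.5. Cpox had the smallest called fall of these, from 123 to 77.2. The ratio of Alas2 to Alad within a library does not depend on the scaling, and it was 0.107 and 0.101 in WT, 0.0804 and 0.239 in the Npm1c pair, 0.0631 and 0.145 in the Flt3-ITD pair and 0.606 and 0.552 in the double mutant. Alas2 and Cpox lost their calls whichever of the 4 libraries was left out (WT replicate 1 or 2, double mutant replicate 1 or 2), with adjusted p of 0.0871 to 0.107 for Alas2 and 0.0907 to 0.1001 for Cpox. With RPKM as deposited Alas2 changed by 1.10, at an adjusted p of 0.0630. The exons of Alas2 overlap those of Apex2 on the other strand by 311 bases, and whether counting used the strand was not stated in the labels.

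Mitochondrial import and iron uptake also held members of both kinds. Slc25a37, mitoferrin 1, which carries iron into the mitochondrion, was at 6.05 and 5.80 RPKM in WT, 3.34 and 4.06 in the Npm1c pair, 4.72 and 5.19 in the Flt3-ITD pair and 6.08 and 6.08 in the double mutant. Its change against WT was 0.36 ± 0.10 (SE, adjusted p = 0.0132), and it was lost without WT replicate 2 or either double mutant library (adjusted p 0.0508 to 0.0713) and on the deposited scale (0.04, adjusted p 0.727). Slc25a38, the carrier that supplies glycine to ALAS2, did not pass at 0.13 ± 0.08 (SE, adjusted p = 0.192), and on the deposited scale its change was -0.20. Abcb10, a mitochondrial transporter that stabilises mitoferrin, was at 42.1 and 42.5 in WT and 22.6 and 23.0 in the double mutant, a change of -0.53 ± 0.04 (SE, adjusted p = 2.21e-05). Glrx5, needed for iron-sulphur clusters, fell from 75.8 to 35.1 RPKM. Tfrc, the transferrin receptor, fell from 64.6 to 30.9, and both double mutant libraries lay below all 6 others for each of Abcb10, Glrx5 and Tfrc.

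Of the membrane skeleton, all 4 tested genes were lower in the double mutant than in WT. Add2, β-adducin, which joins spectrin to actin, was at 9.01 and 9.01 RPKM in WT and 3.08 and 3.08 in the double mutant, a change of -1.09 ± 0.07 (SE, adjusted p = 7.58e-06). Ank1, ankyrin, which ties band 3 to spectrin, fell from 4.19 to 1.80, and Sptb, β-spectrin, from 17.9 to 10.6. Dmtn, dematin, which bundles actin, fell from 3.01 to 1.89. Tmod1 went the other way at a low level: it was at 0.428 and 0.369 RPKM in WT, 0.154 and 0.199 in the Npm1c pair, 0.234 and 0.256 in the Flt3-ITD pair and 1.04 and 0.945 in the double mutant. With no minimum on the level, its change against WT was 0.92 ± 0.06 (SE, adjusted p = 5.37e-05). Its recovered reads ran from 46 to 255 per library, and its exons overlap those of Tstd2 on the other strand by 1287 bases.

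The steepest falls of the set, those of Ermap and Rhd, were at the cell surface, with band 3 apart from them. Slc4a1, band 3, was at 32.2 and 30.7 RPKM in WT, 8.34 and 15.3 in the Npm1c pair, 16.5 and 19.8 in the Flt3-ITD pair and 41.3 and 40.6 in the double mutant. The double mutant was the highest of the HSPC groups. Both single mutants lay below WT, a difference that passed in Npm1c but not in Flt3-ITD. The change of Slc4a1 in the double mutant against WT was 0.72 ± 0.24 (SE, adjusted p = 0.0290). This call was lost when WT replicate 1 or 2 or double mutant replicate 1 or 2 was left out. It was also lost on the deposited scale (0.38, adjusted p 0.180), by quantile normalization (0.58, adjusted p 0.0528) and with RPKM divided by their sum (0.58, adjusted p 0.0619). Ermap, a blood group protein of the erythroid surface, went from 45.3 and 43.8 RPKM to 11.1 and 11.2, a change of -1.61 ± 0.11 (SE, adjusted p = 1.21e-05). Rhd went from 89.7 and 96.2 to 27.3 and 27.6, a change of -1.40 ± 0.10 (SE, adjusted p = 1.71e-05). Aqp1 went from 306 and 309 to 108 and 108, a change of -1.16 ± 0.07 (SE, adjusted p = 6.97e-06). Kel, the Kell blood group protease, went from 18.4 and 18.6 to 6.43 and 6.65, a change of -1.10 ± 0.10 (SE, adjusted p = 4.32e-05). Icam4, an adhesion protein that binds macrophage integrins, went from 18.4 and 19.1 to 7.71 and 8.47, a change of -0.83 ± 0.07 (SE, adjusted p = 2.76e-05); an antisense gene, Gm47079, overlaps its exons by 1110 bases. Rhag, the partner of Rhd in the Rh complex, fell less, from 70.7 to 37.1 RPKM. The ratio of Slc4a1 to Rhag within a library was 0.455 and 0.435 in WT, 0.121 and 0.2001 in the Npm1c pair, 0.305 and 0.310 in the Flt3-ITD pair and 1.12 and 1.09 in the double mutant.

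**Figure D2:**
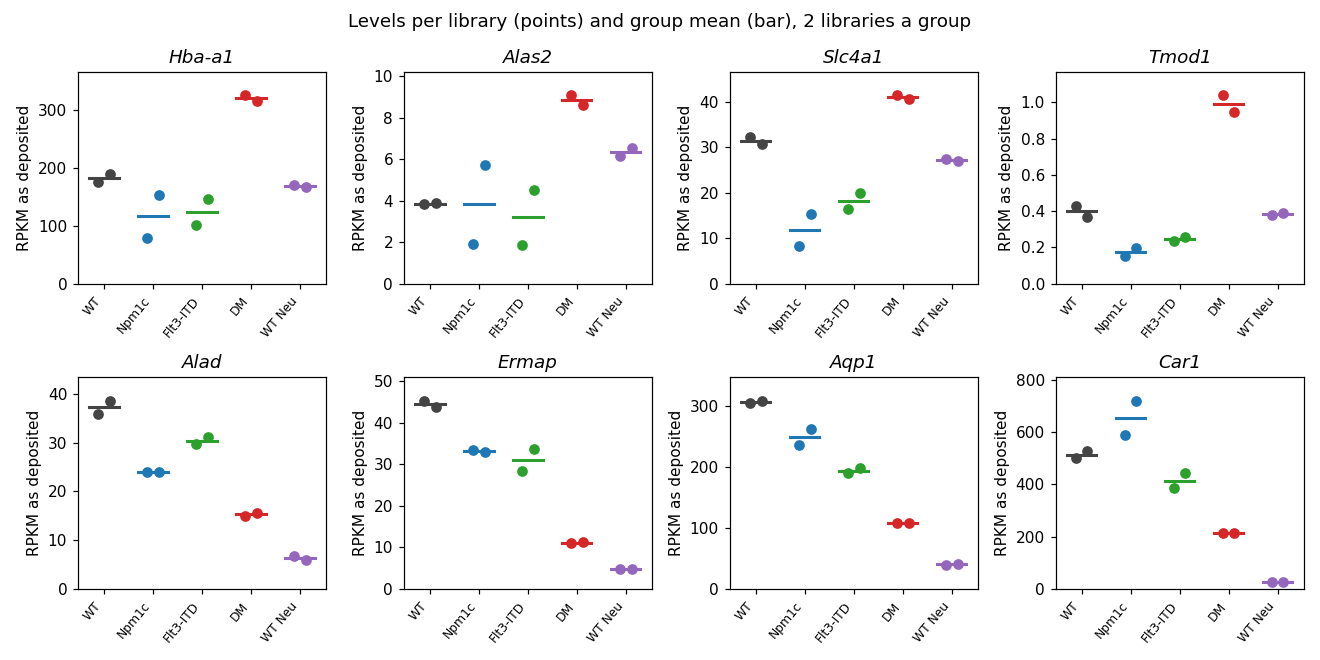
RPKM as deposited of 8 genes in each library (points) with the mean of each group (bar); axes start at 0. Hba-a1, Alas2, Slc4a1 and Tmod1 (upper row) are highest among HSPC in the double mutant, whereas Alad, Ermap, Aqp1 and Car1 (lower row) are lowest there.

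All 3 soluble enzymes fell. Car2 was at 689.8 and 713 RPKM in WT and 262 and 261 in the double mutant, a change of -1.07 ± 0.08 (SE, adjusted p = 1.81e-05). Car1 fell from 513 to 214 RPKM, and Blvrb, a biliverdin and flavin reductase of red cells, from 70.0 to 26.1. Hba-a1 and Car2 moved in opposite directions, and their ratio within a library was 0.254 and 0.265 in WT and 1.25 and 1.22 in the double mutant, with the single mutants between 0.117 and 0.270.

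Among the genes of maturation, Hemgn, a nuclear protein of erythroid cells, had the smallest adjusted p of the set. It was at 50.1 and 49.5 RPKM in WT and 18.5 and 17.9 in the double mutant, a change of -1.09 ± 0.05 (SE, adjusted p = 1.44e-06). Mfsd2b, which exports sphingosine 1-phosphate from red cells, went from 8.81 and 8.61 to 2.49 and 2.51, a change of -1.30 ± 0.10 (SE, adjusted p = 1.61e-05). Trim10 and Trim58, ubiquitin ligase genes of late erythroblasts, fell from 16.7 to 8.40 and from 4.52 to 1.86 RPKM. Xpo7 was at 1.19 and 1.07 in WT and 1.84 and 1.76 in the double mutant, a change of 0.75 ± 0.23 (SE, adjusted p = 0.0184); the call was lost whichever WT or double mutant library was left out (adjusted p 0.0588 to 0.0880) and on the deposited scale (adjusted p 0.0709). Tspan33, a tetraspanin of erythroid progenitors, gave 0.02 ± 0.09 (SE, adjusted p = 0.869), with -0.32 on the deposited scale. Bnip3l, the receptor that clears mitochondria from maturing red cells, gave -0.15 ± 0.06 (SE, adjusted p = 0.0643).

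**Figure D3:**
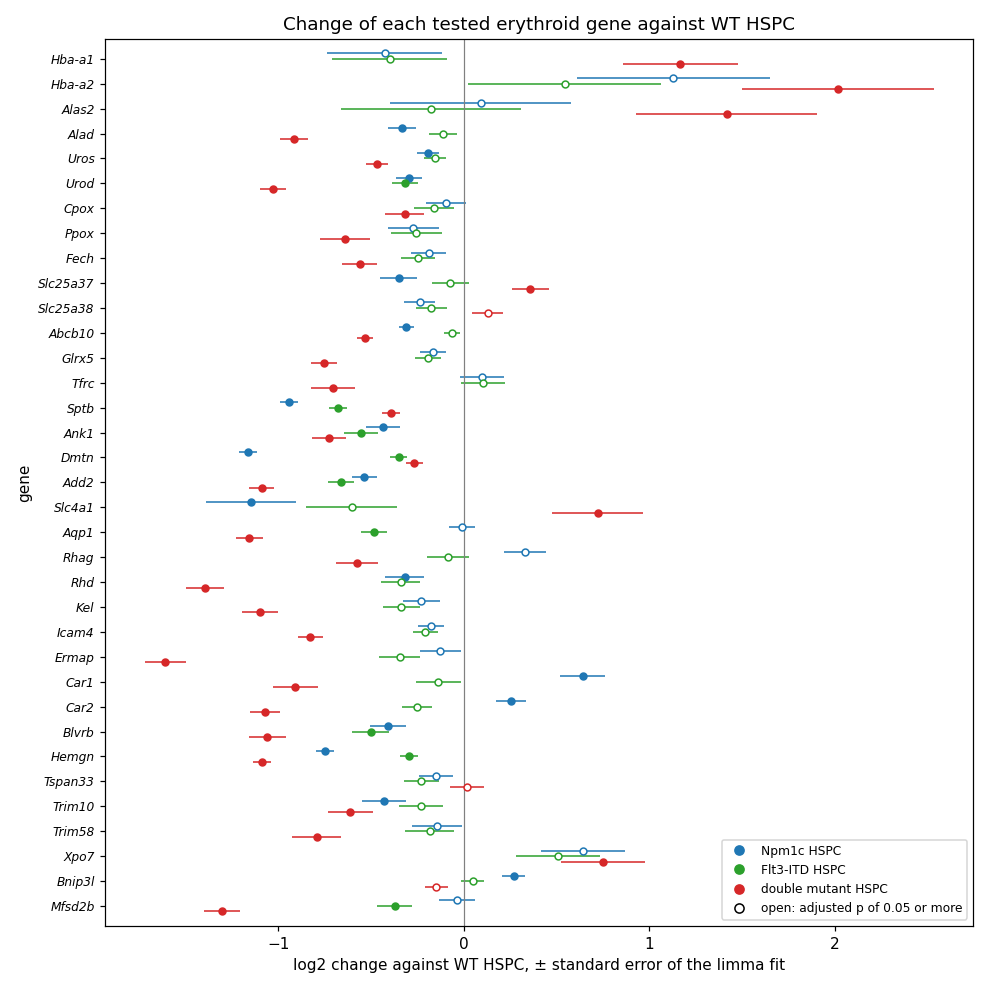
Log2 change of each of the 35 tested genes against WT HSPC, with its standard error, in Npm1c, Flt3-ITD and double mutant HSPC; filled points have an adjusted p under 0.05. The double mutant points (red) spread from -1.61 for Ermap to 2.02 for Hba-a2, wider than either single mutant, and the 3 comparisons share the WT libraries.

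Other gene groups of the same lineage and of other cells gave the surroundings of these changes. Their counts stand beside 40.3% of all tested genes lower in the double mutant than in WT and 37.3% higher. Of 13 erythroid regulators 10 were lower in the double mutant and none was higher, with Gfi1b, a repressor of erythroid and platelet precursors, at -2.05 ± 0.10 (SE, adjusted p = 1.84e-06) and Gata1, the master factor of the lineage, at -1.19 ± 0.08 (SE, adjusted p = 8.01e-06). Of 17 other genes of the membrane 12 were lower and 4 higher: Xk, the partner of Kell, changed by -1.07 ± 0.07 (SE, adjusted p = 1.30e-05), whereas Tmod3, the broadly expressed tropomodulin, changed by 0.74 ± 0.04 (SE, adjusted p = 6.53e-06). Of 23 other haem and iron genes 15 were lower and 5 higher. Alas1, the housekeeping form of the first enzyme, changed by -1.57 ± 0.13 (SE, adjusted p = 2.71e-05), Hmox1, which degrades haem, by 2.93 ± 0.14 (SE, adjusted p = 2.05e-06) and Ftl1, the ferritin light chain, by 0.72 ± 0.05 (SE, adjusted p = 8.27e-06). The ratio of Alas2 to Alas1 was 0.584 and 0.551 in WT and 5.95 and 5.83 in the double mutant. Of 11 genes of red cell metabolism and clearance 5 were lower and 4 higher, near the shares of all genes. Among them Pklr, the red cell pyruvate kinase, was at -1.26 ± 0.11 (SE, adjusted p = 3.70e-05) and Gabarapl2, an autophagy gene, at 0.95 ± 0.04 (SE, adjusted p = 1.12e-06).

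Markers of other cells moved with these genes, beside the same 40.3% of all genes lower and 37.3% higher. All 10 megakaryocyte and platelet markers were lower in the double mutant than in WT, and their summed level went from 283.5-297.2 to 59.4-59.99 RPKM. All 5 tested progenitor markers were lower, with sums over the list of 581.4-608.8 and 66.9-68.1. Of 6 mast cell and basophil markers 5 were lower, with sums of 466.8-487.5 and 6.97-9.95. All 8 macrophage markers were higher, with sums of 3.96-4.37 and 60.2-62.3; C1qa, a complement subunit of macrophages, was at 0.523 RPKM in WT and 17.7 in the double mutant. Of 10 neutrophil markers 1 was lower and 9 did not pass, with sums of 56.8-75.5 and 88.5-103.9. No defining marker of these lists was at 0. The part of these other cells in the changes of the erythroid genes was not tested.

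In Npm1c HSPC fewer members passed the test, among them all 4 tested genes of the membrane skeleton. Against WT, 14 of 35 members were lower, 3 were higher and 18 did not pass, beside 20.1% of all tested genes lower and 18.2% higher. The median was -0.19 for members and -0.01 for all genes. RPKM as deposited, in which the median gene stood at -0.26, gave 26 lower and 1 higher, with 58.1% and 2.49% of all genes. Dmtn had the smallest adjusted p. It was at 3.00 and 3.02 RPKM in WT and 0.826 and 0.842 in Npm1c, a log2 change of -1.16 ± 0.05 (SE, adjusted p = 1.26e-04). Sptb was at 18.5 and 17.3 and 7.42 and 7.33, a change of -0.94 ± 0.05 (SE, adjusted p = 2.27e-04). Add2 changed by -0.54 ± 0.07 (SE, adjusted p = 0.00276) and Ank1 by -0.44 ± 0.09 (SE, adjusted p = 0.0118). Band 3 fell with the skeleton: Slc4a1 changed by -1.15 ± 0.24 (SE, adjusted p = 0.0124). Hemgn was at 23.3 and 24.7 RPKM in Npm1c, a change of -0.75 ± 0.05 (SE, adjusted p = 6.07e-04). Of 7 haem enzymes 3 were lower and 4 did not pass, and of 3 surface antigens none passed, 1 of them with an unadjusted p under 0.05. Other lists moved too: 7 of 13 erythroid regulators were lower and 1 was higher, and 4 of 10 neutrophil markers were higher, with sums of 88.4-413.5 RPKM against 56.8-75.5 in WT. Of the megakaryocyte and platelet markers 1 of 10 was lower, with sums of 145.8-235.5 against 283.5-297.2. Of 5 tested progenitor markers 1 was lower and 1 higher, and none of 8 macrophage markers passed (2 with an unadjusted p under 0.05). The part of other cells in the changes of these members was not tested.

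The carbonic anhydrases went against this. Car1 was at 499 and 527 RPKM in WT and 589 and 719.8 in Npm1c, a log2 change of 0.64 ± 0.12 (SE, adjusted p = 0.00878), and its Npm1c mean was the highest of the 4 HSPC groups. Car2 had a change of 0.25 ± 0.08 (SE, adjusted p = 0.0461), with -0.043 on the deposited scale. Bnip3l changed by 0.27 ± 0.06 (SE, adjusted p = 0.0174), with -0.018 on the deposited scale. Blvrb, the other soluble enzyme, changed by -0.41 ± 0.10 (SE, adjusted p = 0.0187). Rhag, at 69.0 and 76.3 RPKM, gave 0.33 ± 0.11 (SE, adjusted p = 0.0560) and Aqp1, at 236 and 263, gave -0.01 ± 0.07 (SE, adjusted p = 0.932); neither passed. The ratio of Car1 to Rhd within a library was 5.56 and 5.48 in WT and 9.89 and 11.7 in Npm1c.

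Of the 17 calls in Npm1c, 5 held in every alternative that kept the scaling and with any library left out, those of Abcb10, Add2, Dmtn, Hemgn and Sptb. Car1 and Slc4a1 lost theirs without WT replicate 1 or 2 (adjusted p 0.0512 to 0.0598 and 0.0684 to 0.0711). Car2 and Bnip3l lost theirs without any of the 4 libraries (adjusted p 0.126 to 0.187 and 0.0656 to 0.0979), as did Ank1 (0.0530 to 0.0674) and Urod (0.0521 to 0.0992). Rhd and Uros lost theirs without any library too (0.105 to 0.204 and 0.0956 to 0.167), Slc25a37 and Trim10 without Npm1c replicate 1 or either WT library (0.105 to 0.146 and 0.0952 to 0.1201), and Alad without WT replicate 2 or either Npm1c library (0.0556 to 0.0932). The counts were 0, 0, 2 and 1 higher and 6, 5, 7 and 8 lower without WT replicate 1, WT replicate 2, Npm1c replicate 1 and Npm1c replicate 2. Blvrb lost its call without Npm1c replicate 2 or either WT library (0.0750 to 0.0997). Between the Npm1c libraries Alas2 differed by 2.99-fold, and 5 members (Hba-a1, Hba-a2, Alas2, Slc4a1 and Xpo7) by over 1.5-fold, each higher in replicate 2. The neutrophil markers also summed to 413.5 RPKM in that replicate and to 88.4 in replicate 1. Its Y-linked transcripts set it apart as well, and the part of either in the spread of these genes was not tested.

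In Flt3-ITD HSPC the members that passed again held all 4 tested skeleton genes. Against WT, 9 of 35 members were lower, none was higher and 26 did not pass, beside 9.65% of all tested genes lower and 8.24% higher. At an unadjusted p under 0.05, 10 more members passed, and the share of all tested genes at that cut was not counted. The member median was -0.23 and that of all genes 0.01. As deposited, 25 members were lower and none was higher, with 31.3% and 1.86% of all genes. The skeleton genes were Sptb, at 9.99 and 9.40 RPKM and a change of -0.68 ± 0.05 (SE, adjusted p = 0.00183), Add2 at -0.66 ± 0.07 (SE, adjusted p = 0.00451), Ank1 at -0.55 ± 0.09 (SE, adjusted p = 0.0127) and Dmtn at -0.35 ± 0.05 (SE, adjusted p = 0.00754). Aqp1 was at 191 and 198 RPKM, a change of -0.48 ± 0.07 (SE, adjusted p = 0.00920). Blvrb changed by -0.50 ± 0.10 (SE, adjusted p = 0.0206), Hemgn by -0.29 ± 0.05 (SE, adjusted p = 0.0127), Mfsd2b by -0.37 ± 0.10 (SE, adjusted p = 0.0398) and Urod by -0.32 ± 0.07 (SE, adjusted p = 0.0259). All but Sptb lost the call without WT replicate 1 or without WT replicate 2, with adjusted p from 0.0511 to 0.0534 for Add2 up to 0.166 to 0.168 for Mfsd2b; without WT replicate 1, or without WT replicate 2, only Sptb was called lower. The number of members called lower also depended on which Flt3-ITD library was left out. In those fits the share of all tested genes was not counted. Of 13 erythroid regulators 6 were lower and none was higher (1 more had an unadjusted p under 0.05). Markers of other cells moved as well: 3 of 10 neutrophil markers were higher, with sums of at least 259.9 RPKM against at most 75.5 in WT, and 3 of 10 megakaryocyte and platelet markers were lower, with sums of 157.2-181.8 against 283.5-297.2. Their part in the changes of the members was not tested. The α-globin genes and Alas2 did not pass, and Hba-a2 differed by 2.57-fold between the Flt3-ITD libraries (7.02 and 18.1 RPKM).

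The double mutant was also set against each single mutant. The Flt3-ITD genotype as given names no Mx1-Cre, which Npm1c and double mutant mice carried. Npm1c and Cre therefore cannot be told apart in the contrast with Flt3-ITD, nor in the interaction below. Against Npm1c, 23 of 35 members were lower and 7 higher, beside 41.8% and 38.7% of all genes. Against Flt3-ITD, 23 were lower and 8 higher, beside 40.4% and 37.9%. As deposited, the first split was 24 and 7, with 43.0% and 34.4% of all genes, and the second was 25 and 5, with 48.8% and 28.6%. Leaving out Flt3-ITD replicate 1, double mutant replicate 1 or double mutant replicate 2 brought the higher calls against Flt3-ITD to 5, 4 and 5. Of 35 members 25 had their lowest HSPC mean in the double mutant, against 45.2% of all genes, and 22 their highest in WT, against 19.7%. The highest mean was in the double mutant for 8 (40.7% of all genes) and in Npm1c for 4 (28.2%). For 23 members both double mutant libraries lay below the other 6 HSPC libraries (40.3% of all genes), and for 6 they lay above (37.1%).

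Members with roles in the same structure parted here. Sptb was higher in the double mutant than in Npm1c, at 0.55 ± 0.05 (SE, adjusted p = 3.68e-05) and than in Flt3-ITD, at 0.29 ± 0.05 (SE, adjusted p = 0.00122), although it stayed below WT. Dmtn was higher than in Npm1c, at 0.90 ± 0.05 (SE, adjusted p = 2.79e-06), and Add2 was lower, at -0.55 ± 0.07 (SE, adjusted p = 2.14e-04). Slc4a1 was higher than in either, by 1.87 ± 0.24 (SE, adjusted p = 2.83e-04) and 1.33 ± 0.24 (SE, adjusted p = 0.00185). Slc25a37 was higher by 0.71 ± 0.10 (SE, adjusted p = 4.20e-04) and 0.43 ± 0.10 (SE, adjusted p = 0.00559). Car1 fell furthest against Npm1c, at -1.55 ± 0.12 (SE, adjusted p = 2.04e-05), and Ermap furthest against Flt3-ITD, at -1.26 ± 0.11 (SE, adjusted p = 4.16e-05). Alas2 was higher than in Npm1c by 1.33 ± 0.49 (SE, adjusted p = 0.0379) and than in Flt3-ITD by 1.59 ± 0.49 (SE, adjusted p = 0.0193); both calls were lost without either double mutant library, without Npm1c replicate 1 and without Flt3-ITD replicate 1 respectively (adjusted p 0.0993 to 0.216 and 0.0616 to 0.0842), and the changes came down to 0.65 without Npm1c replicate 1 and 0.99 without Flt3-ITD replicate 1. As deposited, the Sptb change against Flt3-ITD was 0.12 (adjusted p 0.0817).

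The interaction asks whether the double mutant departs from the sum of the single changes on the log2 scale. It did so for 22 of 35 members: 7 were higher than the sum and 15 lower, beside 36.6% and 36.3% of all genes. As deposited, 9 were higher and 14 lower, with 39.2% and 27.6% of all genes. Slc4a1 had the largest departure, 2.47 ± 0.34 (SE, adjusted p = 5.41e-04), followed among the higher ones by Hba-a1 at 1.99 ± 0.44 (SE, adjusted p = 0.00501), Dmtn at 1.25 ± 0.07 (SE, adjusted p = 5.50e-06), Sptb at 1.23 ± 0.07 (SE, adjusted p = 7.02e-06) and Slc25a37 at 0.78 ± 0.14 (SE, adjusted p = 0.00192). Below the sum lay Car1 at -1.41 ± 0.17 (SE, adjusted p = 2.83e-04), Ermap at -1.14 ± 0.16 (SE, adjusted p = 5.23e-04), Car2 at -1.07 ± 0.11 (SE, adjusted p = 1.45e-04) and Mfsd2b at -0.89 ± 0.14 (SE, adjusted p = 8.11e-04). Alas2 and Hba-a2 did not pass (adjusted p = 0.0850 and 0.688). Hemgn, lower than WT in all 3 mutant groups, gave -0.05 ± 0.07 (SE, adjusted p = 0.572). Of the 22 calls 20 held in every alternative that kept the scaling and with any library left out; the exceptions were Abcb10 and Tspan33, which lost theirs without 7 and 5 of the 8 HSPC libraries in turn (adjusted p 0.0528 to 0.178 and 0.0607 to 0.0916). The library whose loss kept the Abcb10 call was Flt3-ITD replicate 1, and those for Tspan33 were WT replicate 1 and both Flt3-ITD libraries. The number of members above the sum changed with the library left out, and the share of all tested genes was not counted in those fits.

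**Figure D4:**
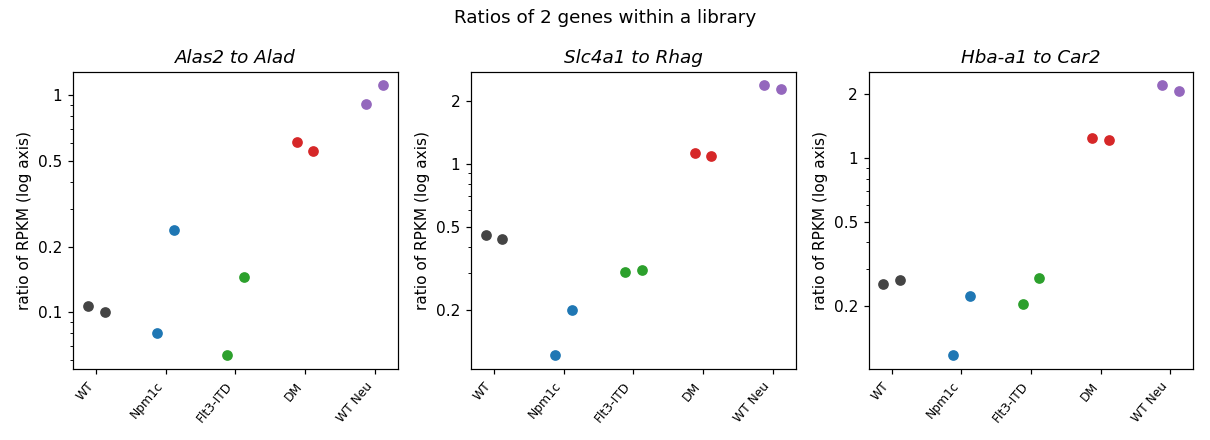
Ratio of 2 members within each library (points, log axis), which does not depend on library scaling: Alas2 to Alad, Slc4a1 to Rhag and Hba-a1 to Car2. The double mutant libraries lie above every other HSPC library in all 3 panels, with neutrophils higher still.

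In WT neutrophils every tested member differed from WT HSPC. In all 27 were lower and 8 higher, beside 45.9% and 44.6% of all genes, and on the deposited scale 28 were lower and 2 higher, with 62.8% and 28.4%. Car1 fell the most, from 499 and 527 RPKM to 25.03 and 25.5, a log2 change of -3.47 ± 0.12 (SE, adjusted p = 8.93e-09). Aqp1 was at 39.9 and 41.0, a change of -2.06 ± 0.07 (SE, adjusted p = 1.05e-08), and Ermap at 4.72 and 4.75, a change of -2.29 ± 0.11 (SE, adjusted p = 6.48e-08). Leaving out WT replicate 1 or 2 left 4 higher, and leaving out either neutrophil library left 5. Hba-a1 was at 171 and 168 RPKM, close to its WT HSPC level, Alas2 at 6.14 and 6.57 and Slc4a1 at 27.3 and 26.9. On the common scale Alas2 changed by 1.44 ± 0.45 (SE, adjusted p = 0.0144), Hba-a1 by 0.75 ± 0.29 (SE, adjusted p = 0.0361) and Slc4a1 by 0.64 ± 0.23 (SE, adjusted p = 0.0268). As deposited, with the median gene at -0.70, the changes were -0.11 for Hba-a1 (adjusted p 0.726) and -0.21 for Slc4a1 (adjusted p 0.390), so the direction of both depends on the scaling. The Alas2 call was lost on that scale (0.65, adjusted p 0.187) and with RPKM divided by their sum (0.26, adjusted p 0.603). Leaving out any of the 4 libraries ended the calls of Hba-a1 (0.0841 to 0.132) and Slc4a1 (0.0732 to 0.0979), and leaving out WT replicate 1 or 2 or neutrophil replicate 2 that of Alas2 (0.0539 to 0.0575). Bnip3l was at 22.5 and 22.3 RPKM against 15.2 and 15.5 in WT HSPC, a change of 1.37 ± 0.06 (SE, adjusted p = 5.75e-08), with 0.53 as deposited and 0.11 (adjusted p 0.0697) when divided by the sum, where the call was lost.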

How the data were processed

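RNA was measured in 10 libraries, 2 in each of 5 groups assigned from the labels. The authors deposited RPKM per gene, 1 table a library. Per the submitters' processing notes, the tools included STAR 2.4.0 and HTSeq and the build was mm10; the notes give neither the annotation nor the strand setting, nor how reads that map to several places were handled. Whole reads were recovered from the RPKM steps for 16655 of 16655 genes (tolerance 0.02 reads) and served to state depth. Counting error enters the printed SE only through the spread between libraries and was not modelled apart from it.

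Each library was divided by a median-of-ratios size factor, since the median gene differed between libraries on the deposited scale. Tests used limma 3.58.1 (R 4.3.3) with a variance trend on log2(value + 0.5), for genes that reached 1 RPKM in 2 or more of the libraries fitted, and Benjamini-Hochberg adjustment over all of them at 0.05: 9702 genes in the fit of the 8 HSPC libraries, and 10174 in that of all 10, which served the neutrophils. A fold on this scale understates low genes. Other scalings, pseudocounts of 0.1 and 1, no minimum, a minimum of 5 RPKM, a replicate block, a term for Y-linked transcripts and leaving out each library were alternatives.

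Members and lists were chosen with earlier results of these data known. Fold changes were given for up to 12 members with the smallest adjusted p in a comparison and for members unlike their role, and for up to 4 genes of each other list. The α-globin genes, Car2 and Tmod1 are given outside that rule, chosen after their values were seen. RefSeq upstream sequences are from GRCm38.p6, and gene positions from GENCODE M21 on GRCm38. Python 3.11.15, pandas 2.3.3 and matplotlib 3.10.9 were used.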

Additional observations from a re-analysis of the deposited data

Results flagged for a closer look

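For 7 members the difference between cells with and without 1 mutation reversed with the presence of the other. The share of all tested genes that did so was not counted. The interaction itself was called higher for 36.6% and lower for 36.3% of all tested genes. Each of the opposite differences passed with all libraries, and so did the interaction (limma, adjusted p). The interaction is the gap between the 2 opposite differences, from the same libraries, so its passing is no separate check of the reversal. Slc4a1 was lower in Npm1c than in WT and higher in the double mutant than in Flt3-ITD, an interaction of 2.47 (adjusted p = 5.41e-04). Slc25a37 did the same at 0.78 (adjusted p = 0.00192). Sptb was lower in each single mutant than in WT and higher in the double mutant than in each of them, at 1.23 (adjusted p = 7.02e-06). Dmtn was lower in Flt3-ITD than in WT and higher in the double mutant than in Npm1c, at 1.25 (adjusted p = 5.50e-06). Car1, Car2 and Bnip3l were higher in Npm1c than in WT and lower in the double mutant than in Flt3-ITD, with interactions of -1.41, -1.07 and -0.46 (adjusted p = 2.83e-04, 1.45e-04 and 0.00268). For Car2 and Bnip3l the Npm1c difference was below 0 with RPKM as deposited, so their reversal depends on the scaling. Sptb in the double mutant against Flt3-ITD kept its direction on that scale but lost its call. Leaving out 1 library ended some of the opposite calls. Those in Npm1c were lost without WT replicate 1 or 2 for Slc4a1 and Car1, without these or Npm1c replicate 1 for Slc25a37, and without any of the 4 libraries for Car2 and Bnip3l, and that of Dmtn in Flt3-ITD without WT replicate 1 or 2. Bnip3l in the double mutant against Flt3-ITD lost its call without Flt3-ITD replicate 2, where the difference came to -0.10, or either double mutant library (adjusted p 0.0502 to 0.103). The 7 interactions kept their calls with any 1 library left out. With 2 libraries a group, no group could be tested for an outlying library.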

How the results depend on the processing

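Of 176 calls of members over the 7 comparisons, 130 kept direction and call under every alternative that keeps the scaling. Pseudocounts kept all 176, quantile normalization 165, RPKM divided by their sum 163, RPKM as deposited 160, no minimum 159, a minimum of 5 RPKM all 155 that it tested, and the Y-linked term 165. As deposited, Npm1c had 1 higher and 26 lower, Flt3-ITD 25 lower, the double mutant 2 higher against WT and 5 higher against Flt3-ITD, and neutrophils 2 higher. Quantile normalization gave 14 lower in Flt3-ITD, 3 higher in the double mutant and 5 higher in neutrophils. Division by the sum gave 20 lower in Flt3-ITD and 0 higher in neutrophils. For these 2 scalings, and for the fits with a library left out, the share of all tested genes was not counted. Leaving out 1 library gave 0 to 2 higher and 5 to 8 lower in Npm1c, 0 to 2 higher and 1 to 22 lower in Flt3-ITD, 1 to 2 higher in the double mutant, 4 to 8 higher against Flt3-ITD, 6 to 11 above the sum in the interaction, and 4 to 5 higher in neutrophils.

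Some signs turned. As deposited, Bnip3l was -0.018 and Car2 -0.043 in Npm1c, Slc25a38 -0.20 and Tspan33 -0.32 in the double mutant, and Hba-a1 -0.11, Ppox -0.33 and Slc4a1 -0.21 in neutrophils. Divided by their sum, Hba-a1 was -0.54, Ppox -0.67, Slc25a37 -0.17 and Slc4a1 -0.63 there. Dmtn was -0.14 in the double mutant against Flt3-ITD by quantile normalization. The Cpox interaction ran from -0.25 without Flt3-ITD replicate 1 to 0.13 without Flt3-ITD replicate 2. The cause was not tested.

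A replicate block kept 173 of the 176 calls, and gave 15 members lower in Npm1c. Replicates of different groups share only a number, with correlations of their deviations between -0.111 and 0.107. Recovered reads were fewest for Tmod1 (46 to 255 per library), Trim58 (100 to 568), Icam4 (107 to 999) and Hba-a2 (402 to 1409), which limits their precision. With 2 libraries a group, a spread estimate shared by all groups carries every test.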
